A study of Rattus norvegicus with 9 samples.

Results

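Haemoglobin is the oxygen carrier of red blood cells and is built from alpha-type and beta-type chains around haem. The 2 entries HBA and HBB2 of the deposited expression table, an alpha-type and a beta-type haemoglobin gene, were followed through all 9 libraries, out of 22512 entries in the table. They were chosen by their FPKM in these same libraries, which had stood out in the vericiguat + AngII treatment group, so their levels are described and not tested. In mammals the alpha-type and beta-type genes lie in separate clusters, each with members used at different stages of development, and red cell precursors keep their products close to balance. Young red cells carry globin mRNA after they have lost their nucleus, so globin mRNA in a tissue sample is commonly read as a sign of blood, although lower levels have been described in other cell types. In bulk samples, fewer cells of a type and less RNA per cell cannot be told apart.

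The libraries came from cardiac fibroblasts (CFs), the collagen-producing cells of the heart, which were isolated from neonatal rats by differential adherence and used at early passage. The blank group had no treatment (3 libraries). The AngII group had 0.1 μM angiotensin II for 72 h (3 libraries). The vericiguat + AngII treatment group had 1.0 μM vericiguat, a stimulator of soluble guanylate cyclase, for 24 h and then AngII at the same dose and for the same time (3 libraries), in the order that the labels give. The study's account of a separate migration assay gives the reverse order. Nothing says that the 3 libraries of a group came from separate cultures or litters, so the SDs below measure the spread between libraries, which may be technical. FPKM, the unit of the table, divides the fragments of a gene by its length and by the size of the library, so levels of different genes can be set side by side.

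The animals are labelled as rat, while the processing notes of the submitters name OryCun2.0, a rabbit assembly, as the genome build. Neither member equals a rat gene symbol or synonym in the GRCr8 gene table, also with case ignored, and 147 entries of the deposited table carry names with ORYCUN. How completely fragments of a rat globin transcript would be counted on a rabbit gene model is not known from the files, and the handling of fragments that match several near-identical globin genes is not given, so an FPKM of HBA or HBB2 may include or lack fragments of neighbouring copies.

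A few entries held a large part of the FPKM. The 13 entries named KEF51 held 96.7% to 97.9% of the summed FPKM in the blank and AngII libraries and 45.3% to 52.3% in the vericiguat + AngII libraries. Of what remained, the entry ADORA1-2 alone held 59.7% to 90.0% in the blank and AngII libraries and 17.1% to 27.8% in the vericiguat + AngII libraries. FPKM of at least 1 was reached by 247 to 1529 entries outside KEF51 in the blank and AngII libraries and by 11267 to 11552 in the vericiguat + AngII libraries. The third blank library lay between the first and the second for 292 of the 296 entries outside KEF51 that exceeded FPKM 5 in a blank library (98.6%), against at most 46.1% for any library of the other groups, and its independence from them was not tested. Blank values are therefore also given without it. Of 4 fibroblast markers that are listed, out of 15, COL1A2, DCN, LUM and FN1 summed to 1.70 to 24.7 FPKM in the blank group, 7.09 to 25.7 in the AngII group and 368 to 527 in the treatment group.

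HBA, the gene of the adult alpha-type chain, had 353, 137 and 223 FPKM in the 3 blank libraries. It had 117, 203 and 181 FPKM in the AngII libraries. In the vericiguat + AngII libraries it had 6390, 9546 and 11628 FPKM. The AngII and blank libraries overlapped, and every vericiguat + AngII library lay above all others.

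HBB2, the gene of a beta-type chain, had 44.9, 16.4 and 27.6 FPKM in the blank libraries. It had 87.1, 89.5 and 130 FPKM in the AngII libraries and 1974, 4507 and 3499 FPKM in the vericiguat + AngII libraries. Unlike HBA, it was higher in each AngII library than in each blank library, and again highest in the treatment group. In all 9 libraries HBA exceeded HBB2.

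**Figure D1:**
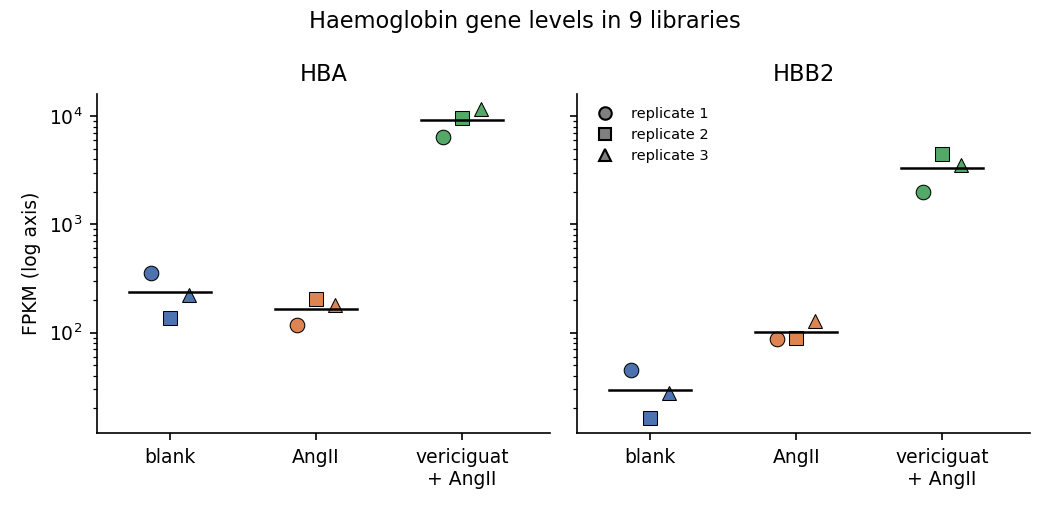
FPKM of HBA and HBB2 (log axis) in the 9 libraries by group, with 1 point a library and a line at the group mean. The blank and AngII points overlap for HBA and not for HBB2, where the blank libraries reach 44.9 and the AngII libraries start at 87.1, and the vericiguat + AngII points lie above all others for both.

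HBA averaged 238 ± 108 FPKM in blank, 167 ± 44.9 in AngII and 9188 ± 2637 under treatment (SD, n = 3 each). The treatment mean was 38.7 times the blank mean and 55.0 times the AngII mean. The log2 fold change on the log2(FPKM + 1) scale was -0.44 for AngII against blank (standard error 0.655), 5.77 for treatment against AngII and 5.33 for treatment against blank. Without the third blank library the blank mean was 245 FPKM (n = 2).

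HBB2 averaged 29.6 ± 14.4 FPKM in blank, 102 ± 23.8 in AngII and 3327 ± 1276 under treatment (SD, n = 3 each). Its AngII mean was 3.44 times its blank mean, and its treatment mean 32.6 times the AngII mean and 112 times the blank mean. The log2 fold changes were 1.84 for AngII against blank (standard error 0.724), 4.96 for treatment against AngII and 6.79 for treatment against blank. Without the third blank library the blank mean was 30.7 FPKM (n = 2). For both genes the treatment group thus lay apart from the rest by more than the spread of the libraries, while the blank and AngII means of HBA differed by less than 1 SD of the blank group.

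These differences have to be read beside those of all genes. By limma, at an adjusted p below 0.05 and a log2 fold change of 1 or more in either direction, 99.6% of the 10908 tested genes were called between the treatment and AngII groups (99.5% higher) and 99.4% between the treatment and blank groups (99.3% higher). Between AngII and blank 1.55% were called, a number that rested on single libraries, at 0 genes without the third blank library and 309 without the second, compared with 169 with all libraries. The vericiguat + AngII libraries were higher without overlap for 99.7% of the tested genes against AngII and for 99.6% against blank, so nothing about the 2 members follows from their own separation. With median-ratio scaling, which brings the median gene of all libraries to 1 level, 261 genes were called higher and 204 lower against AngII, and 688 higher and 379 lower against blank. HBA then had a log2 fold change of 0.41 against AngII and -0.77 against blank, and HBB2 of -0.39 against AngII and 0.74 against blank. For AngII against blank this scaling called 576 genes higher and 358 lower, compared with 157 and 12 before. HBB2 was among the 19.8% of tested genes that were higher in every AngII library than in every blank library.

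The ratio of HBA to HBB2 does not change when all genes of a library are multiplied by 1 factor. The blank libraries gave 7.86, 8.38 and 8.06. The AngII libraries gave 1.34, 2.27 and 1.39, and the vericiguat + AngII libraries 3.24, 2.12 and 3.32. The 3 blank libraries lay close together and far above the other 6, and the AngII and vericiguat + AngII libraries overlapped.

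**Figure D2:**
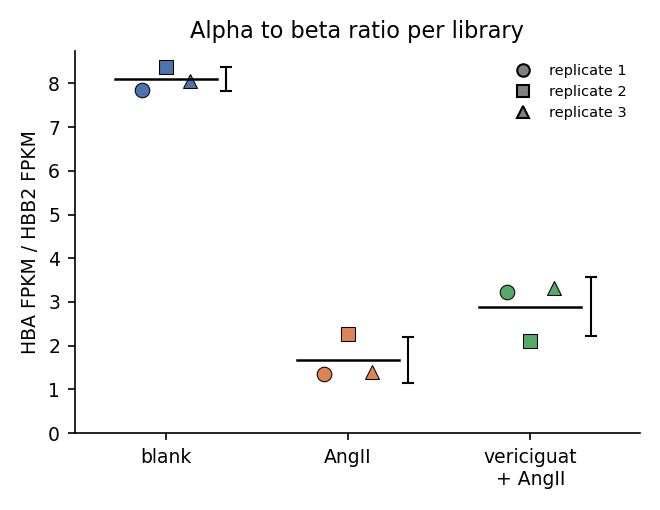
HBA FPKM divided by HBB2 FPKM in each of the 9 libraries, with the group mean as a line and the SD of 3 libraries as a bar beside it. The blank libraries sit between 7.86 and 8.38, and the other 6 libraries between 1.34 and 3.32.

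The ratio averaged 8.10 ± 0.265 in blank, 1.67 ± 0.523 in AngII and 2.89 ± 0.673 under treatment (SD, n = 3 each). On the log2 scale the ratio was lower in AngII than in blank by a difference of -2.32 (standard error 0.246) and lower in treatment than in blank by -1.51 (standard error 0.212). The difference of treatment from AngII was 0.81 (standard error 0.323), within overlapping libraries. Without the third blank library the blank mean was 8.12 (n = 2), and the order of the groups was as before. Quantile normalization, which replaces each level by the mean level at its rank, turned the order, as an alternative added after the values were seen. The ratio was then 1.88 to 4.65 in the blank libraries, 1.28 to 1.34 in AngII and 8.74 to 15.7 under treatment, so that the lower ratio under treatment than in blank holds for the deposited FPKM and not for rank-matched levels, while the AngII libraries stayed below the blank ones. On the deposited scale 1 AngII library, the second, stood at 2.27, above the 2 others at 1.34 and 1.39.

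A shift of this kind was frequent for HBA. Over the 3812 other genes outside KEF51 with FPKM above 0 in all 9 libraries, the ratio of HBA to the gene was lower in every AngII library than in every blank library for 39.3%, and lower in every treatment library than in every blank library for 39.8%. Conversely, the ratio of HBB2 to the gene was higher without overlap for 30.7% of 3812 genes in AngII against blank and for 24.1% in treatment against blank. Against many genes, HBA thus stood lower and HBB2 higher in the AngII and treatment groups than in the blank group.

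Against GAPDH, the glycolytic enzyme often used as a level reference, HBA stood at 5.39 to 8.24 in the blank libraries, 1.56 to 2.30 in the AngII libraries and 2.00 to 4.46 in the vericiguat + AngII libraries. HBB2 stood at 0.686 to 0.983, 1.01 to 1.39 and 0.617 to 1.35 in the same order. HBB2 was thus close to GAPDH in every library, while HBA exceeded it most in the blank group. ACTB, the gene of beta-actin, was less steady, at 3.07 to 43.0 FPKM in the blank group, 3.55 to 7.06 in the AngII group and 660 to 779 in the treatment group. Against ACTB, HBA stood at 8.21 to 44.8 in the blank libraries, 21.8 to 50.9 in the AngII libraries and 8.79 to 14.9 under treatment, so that the AngII mean was above the blank mean, within overlapping libraries, and the treatment group lay below the AngII group. HBB2 stood at 1.04 to 5.34, 12.7 to 36.5 and 2.71 to 6.83 times ACTB, highest in the AngII group with no overlap. Over the 3812 genes, the ratio of HBB2 to the gene was higher in AngII than in blank without overlap for 30.7%. Treatment was lower than AngII without overlap for 17.7% of them with HBB2 and for 8.68% with HBA. ACTB itself rose 136 times between the AngII and treatment means, compared with a median of 46.0 over 10290 genes. The direction of HBA from blank to AngII thus differed between GAPDH and ACTB as reference, while HBB2 was higher in AngII than in blank against both.

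The share of a gene in the FPKM outside the KEF51 entries gives its level relative to the other genes. HBA held 1.14%, 0.379% and 0.590% of it in the blank group, 0.256%, 0.353% and 0.335% in AngII, and 1.50%, 2.23% and 2.68% under treatment. HBB2 held 0.145%, 0.0453% and 0.0733% in the blank group, 0.190%, 0.155% and 0.240% in AngII, and 0.463%, 1.05% and 0.807% under treatment. On this measure both genes were highest in the treatment group, with no overlap, as were 84.3% of 10895 tested genes against blank and 90.5% against AngII. Each AngII library was below each blank library for HBA, by a narrow margin, and above each for HBB2, where 2.5% of the tested genes were lower and 13.5% higher without overlap. Together the 2 genes made up 0.425% to 1.28% of the FPKM outside KEF51 in the blank group, 0.446% to 0.575% in the AngII group and 1.96% to 3.49% in the treatment group.

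The direction for HBA against blank hung on the reference. With ADORA1-2 also left out of the sum, a choice made after the values were seen, HBA held 2.83%, 3.80% and 2.88% in the blank group, 1.11%, 1.77% and 1.18% in AngII, and 1.81%, 2.76% and 3.71% under treatment. On this reference the treatment and blank groups overlapped, and the AngII group lay below both; 6.84% of the tested genes were lower in AngII than in blank without overlap, and 43.6% higher under treatment than in AngII. HBB2 held 0.360%, 0.454% and 0.357% in the blank group, 0.825%, 0.777% and 0.848% in AngII, and 0.559%, 1.30% and 1.12% under treatment. Here all AngII libraries lay above all blank libraries, as did those of 15.8% of the tested genes. The treatment group lay above the blank group as well, as for 58.2% of the tested genes, and overlapped the AngII group.

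**Figure D3:**
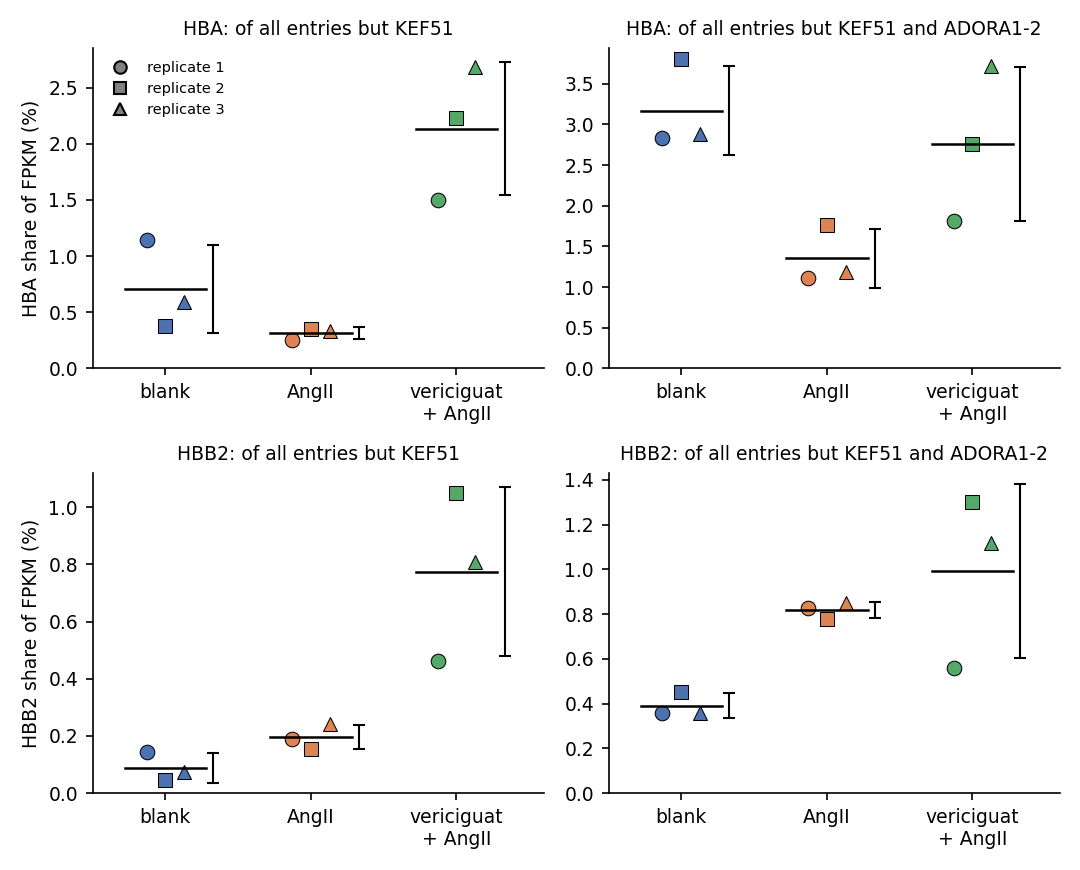
Share of HBA (top) and HBB2 (bottom) in the summed FPKM of each library, in percent, without the KEF51 entries (left) and without these and ADORA1-2 (right), with group means as lines and the SD of 3 libraries as bars. On the left both genes are highest in the treatment group, and on the right the blank group of HBA, at 2.83% to 3.80%, overlaps the treatment group, at 1.81% to 3.71%.

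Against the typical gene the picture was similar. Among the 8899 tested genes outside KEF51 with a mean above 0 in both groups, the median ratio of the treatment mean to the blank mean was 69.1, compared with 38.7 for HBA and 112 for HBB2. HBA lay above 27.8% of these genes and HBB2 above 67.4%. For treatment against AngII the median ratio was 46.0 over 10290 genes, with HBA above 58.4% of them and HBB2 above 33.3%. For AngII against blank the median ratio was 1.50 over 8671 genes, with HBA at 0.703 (above 24.5%) and HBB2 at 3.44 (above 76.8%). Relative to the median gene, HBA was therefore lower and HBB2 higher in both comparisons with the blank group, and the 2 genes changed places in the comparison of treatment with AngII.

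By rank, both genes were among the 33 highest of 22499 entries outside KEF51 in every library. HBA stood at rank 3 in each blank library, at ranks 9, 5 and 7 in the AngII libraries and at ranks 3, 3 and 2 in the vericiguat + AngII libraries. HBB2 stood at ranks 33, 9 and 27, then 12, 8 and 10, and then 12, 5 and 6 in the same order. Among entries with a symbol, HBA followed directly on ADORA1-2 by mean FPKM in all 3 groups. The entry next below HBA was FTL, the ferritin light chain (48.7 ± 33.9 FPKM, SD, n = 3), in the blank group, EEF1A1, a translation elongation factor (125 ± 87.7 FPKM, SD, n = 3), in the AngII group, and MYH7, a myosin heavy chain of cardiac muscle (3586 ± 792 FPKM, SD, n = 3), in the treatment group. In the AngII group EEF1A1 ranged from 23.5 to 180 FPKM and so overlapped HBA.

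The neighbours of HBB2 did not differ from it beyond their spread. In the blank group these were DEPP1 above, at 29.9 ± 22.3 FPKM (SD, n = 3), and ACTB below, at 22.8 ± 20.0 (SD, n = 3). In the AngII group EEF1A1 was above it and GAPDH below (89.0 ± 26.6 FPKM, SD, n = 3). Under treatment MYH7 was above it and GAPDH below (3049 ± 391 FPKM, SD, n = 3).

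Of 5 other haemoglobin entries that were looked at by symbol, 4 were below 1 FPKM in every library, HBZ0 being the exception. HBG1 and HBG2, named for the fetal gamma-type chains, had at most 0.741 FPKM and 0 FPKM in any library, and HBG1 was listed at 0 in all AngII libraries. HBQ1, a theta-type gene, was listed at 0.352 FPKM in 1 vericiguat + AngII library and at 0 in the others. Outside the fixed list, and named after its values were seen, HBZ0 was listed at 0 in 7 libraries and at 62.0 and 89.1 FPKM in the other 2, replicates 2 and 3 of the vericiguat + AngII group. HBQ1_2, chosen in the same way, had 0.861, 0.963 and 0.871 FPKM in the vericiguat + AngII libraries and at most 0.122 elsewhere. HBZ0 was the only one of these 5 genes above 1 FPKM. Replicate 1 of that group, where it was at 0, also had the lowest HBA and HBB2 of its group, which rests on 1 library, and a link was not tested.

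Of a list of 54 genes of red cells and their precursors, 5 besides HBA and HBB2 are listed by symbol, and 2 of these, CA2 and BPGM, passed the filter on low values, an FPKM of 1 or more in 3 or more libraries. Defining genes such as the red cell haem enzyme ALAS2 and the anion exchanger SLC4A1 are among those with no entry under their symbol, so their levels were not analysed here. BPGM makes bisphosphoglycerate, which lowers the oxygen affinity of haemoglobin in red cells. Its FPKM was 0.385, 0.095 and 0.150 in blank, 0.571, 0.477 and 1.54 in AngII, and 18.1, 26.2 and 23.3 under treatment. Each AngII library thus exceeded each blank library, as for 19.8% of all tested genes, at a log2 fold change of 0.59 that was not called (unadjusted p = 0.0305 and adjusted p = 0.278 from limma). In the treatment group BPGM rose, with a log2 fold change of 3.69 against AngII and 4.28 against blank (adjusted p = 1.65e-08 and 4.22e-09 from limma), where 99.5% and 99.3% of all tested genes were called higher at medians of 2.77 and 2.83. With a pseudocount of 0.01 it was at 4.875 and 6.891, compared with medians of 5.921 and 6.885. It was not called after median-ratio scaling. With the same sum outside KEF51 it was called higher (1.27 and 1.91, adjusted p = 0.00427 and 0.00026 from limma), as were 4752 and 5008 of 10908 genes.

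CA2, carbonic anhydrase II, which hydrates carbon dioxide in red cells and other cells, had an FPKM of 0, 0.082 and 0 in blank and of 0.219, 0.137 and 0.664 in AngII. It rose to 5.89, 11.1 and 9.40 FPKM in the vericiguat + AngII libraries (log2 fold change of 2.85 against AngII, adjusted p = 5.00e-08 from limma). Of all tested genes 99.5% were called higher in that comparison, at a median of 2.77, and CA2 was not called after median-ratio scaling. With a pseudocount of 0.01 its log2 fold change there was 4.91, below a median of 5.92. The AngII libraries of CA2 lay above the blank libraries, which 19.8% of all tested genes share, and its log2 fold change of 0.36 there was not called (adjusted p = 0.476 from limma).

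Of 37 genes of haem synthesis and of haem and iron handling, 7 are listed by symbol and all 7 were tested. No gene of these or of the red cell list was called for AngII against blank by limma (0 of 9, of which 1, BPGM, had an unadjusted p below 0.05), where 1.55% of all genes were called. For treatment against AngII and against blank 8 of 9 were called higher in each, at a median log2 fold change of 2.85 and 3.21, compared with 2.77 and 2.83 over all 10908 tested genes. How the list compares with all genes depended on the pseudocount. With 0.01 in place of 1 the medians over all tested genes were 5.921 and 6.885. Of the 8 list genes called higher in each, HPX and TF then exceeded the first. CA2, TF and BPGM exceeded the second, and the others lay below. After median-ratio scaling 1 of the 9, FTL, was called both against AngII and against blank, and it was lower. With each library rescaled to the same total, 8 were called higher in each comparison. With the same sum outside KEF51, 3 were called higher against AngII, and 4 higher and 1 lower against blank. The rises given for these genes thus depended on the scaling.

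FTL, which stores iron, was the highest of the list, at 81.2, 13.6 and 51.3 FPKM in blank, 21.2, 45.7 and 36.8 in AngII, and 630, 449 and 555 under treatment. It rose by 3.99 on the log2 scale against AngII (adjusted p = 0.000394 from limma), but after median-ratio scaling it was lower there, at -1.31. HMOX2, the constitutive haem oxygenase that breaks haem down, reached 39.3 to 55.8 FPKM in the treatment group against 0.160 to 2.28 in the other 6 libraries. UROS, an enzyme of haem synthesis, reached 4.14 to 6.34 FPKM against at most 0.563 elsewhere. TF, the iron carrier transferrin, ACO1, whose iron-free form regulates iron genes, and HPX, the haem scavenger haemopexin, were also called higher, with HPX at no more than 1.96 FPKM in any library.

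HP, the gene of haptoglobin, which binds free haemoglobin, was the exception. Its FPKM was 33.1, 0 and 13.3 in blank, 2.69, 0.130 and 0.377 in AngII, and 6.83, 3.17 and 1.36 under treatment. The second blank library was at 0 while the other 2 were the highest of all 9. On the deposited scale, with all 9 libraries in 1 fit, no comparison called HP (log2 fold change of -2.14 for AngII against blank, adjusted p = 0.396 from limma). Scaled to the same sum outside KEF51 it was called lower in treatment than in blank (-3.09, adjusted p = 0.0441 from limma), as were 53 of 10908 genes. In a fit of the treatment and AngII libraries alone it was called higher in treatment than in AngII (1.25, adjusted p = 0.0380 from limma). There 10859 of 10908 genes were called higher, at a median of 2.77, so HP rose less than the typical gene. Without the second blank library HP was called lower in AngII than in blank (-3.62, adjusted p = 0.0133 from limma) and lower in treatment than in blank (-2.37, adjusted p = 0.00277 from limma), and higher in treatment than in AngII (1.25, adjusted p = 0.0425 from limma). Of 10908 genes, 162, 14 and 10859 were called in the same directions. NGB, the neuronal globin, is the only one of 4 other globins that is listed, and stayed below 1 FPKM throughout.

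**Figure D4:**
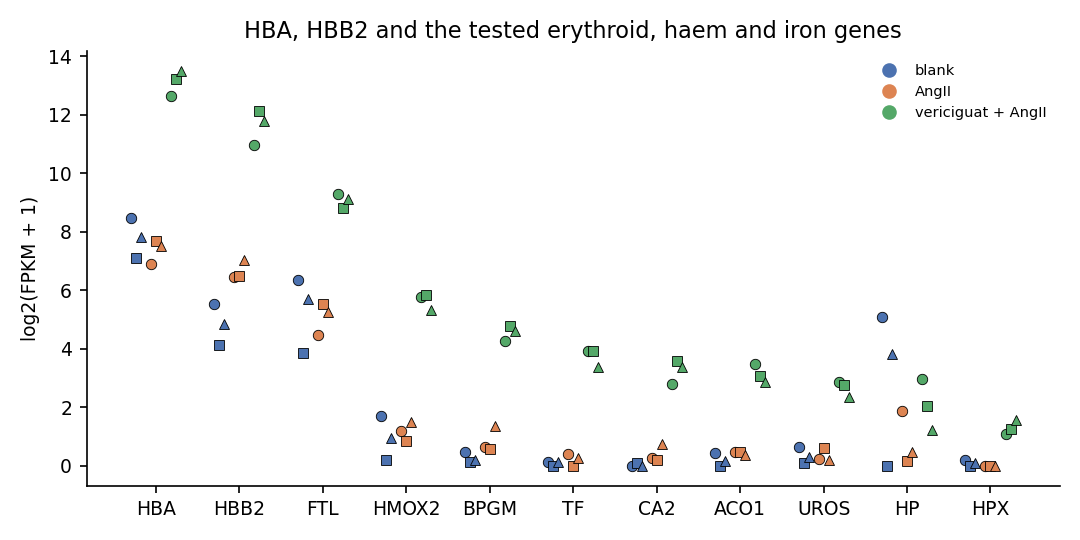
HBA, HBB2 and the 9 other tested genes of red cells, haem and iron on the log2(FPKM + 1) scale, with 1 point a library, coloured by group. All but HP lie higher in the treatment group than in every other library, and HP is highest in blank libraries 1 and 3, at 33.1 and 13.3 FPKM.

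Markers of other blood and vessel cells were low outside the treatment group, as most genes were. For leucocytes and macrophages 4 of 15 markers are listed (CD14, CD3E, CD4 and S100A9), and they summed to 0.846 to 3.15 FPKM in the blank group, 0.418 to 1.22 in the AngII group and 10.4 to 14.3 in the treatment group, with CD3E at 0 in all blank and AngII libraries. Of 8 platelet markers only ITGA2B is listed, at 0 in the AngII libraries and at no more than 0.685 FPKM in any. The endothelial markers KDR and VWF, 2 of 10, summed to 0.054 to 0.421 FPKM in the blank and AngII libraries and to 81.3 to 86.2 in the treatment group, and KDR was at 0 in all blank libraries. Of 16 markers of cardiac muscle 6 are listed, and they summed to 6.80 to 9.05 FPKM in the blank group, 45.0 to 109 in the AngII group and 3812 to 6077 in the treatment group, with NPPA at 0 in the blank libraries. The fibroblast, endothelial and cardiac muscle sums and both haemoglobin genes were all highest in the treatment group. So were 99.7% of the tested genes against AngII and 99.6% against blank, without overlap. The joint rise is therefore not particular to these markers. From blank to AngII, 19.8% of the tested genes were higher without overlap, as was the cardiac muscle sum. The part of other cell types in the levels of HBA and HBB2 was not tested.

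The genes whose level followed each member most closely were found from the SD of the log2 ratio of the gene to the member over the 9 libraries, a measure that does not change with the scale of a library. It was computed for 3812 genes, of which 419 carry a symbol, and the libraries share their groups, so the SD holds both group and library differences. For HBB2 the symbol entry with the smallest SD was ATP5ME, a subunit of mitochondrial ATP synthase, at 0.23, which was also the smallest of all 3812 genes, where the median was 1.12. HBB2 stood at 1.36 to 2.22 times ATP5ME in all 9 libraries. BPGM followed with an SD of 0.40 (rank 4 of 3812), although HBB2 exceeded it by 84.0 to 188 times. GAPDH (0.45), EEF1G, a translation elongation factor (0.45), and COX6A1, a subunit of cytochrome c oxidase (0.45), came next.

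For HBA the symbol entries were PDE1B, a phosphodiesterase that breaks down cyclic nucleotides, at an SD of 0.38 (rank 7 of 3812), ERG28, a factor of sterol synthesis (0.41), OAZ2, an antizyme of the polyamine pathway (0.45), GASK1A (0.49) and TRIR (0.51). PDE1B had 0.063 to 0.179 FPKM in the blank and AngII libraries and 4.48 to 5.72 in the vericiguat + AngII libraries. GASK1A was below 0.02 FPKM outside the treatment group, where a few fragments decide the value. No gene stood on both lists of 5.

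Over the 9 libraries HBA and HBB2 were not especially close to each other, nor especially far apart. The SD of their log2 ratio was 1.06, compared with a median over the genes of 1.10 for HBA and 1.12 for HBB2. It stood at rank 1739 of 3812 seen from HBA and 1663 of 3812 seen from HBB2. Many genes of other function thus followed each of them more closely than the other member did. This SD includes the difference of the blank group from the others. Within groups it was 0.047 in blank, 0.424 in AngII and 0.365 under treatment, and other genes were not compared within groups. HBA was 917 to 1485 times as high as BPGM in the blank libraries and 117 to 427 times as high in the AngII libraries. These groups did not overlap, as for 39.3% of the 3812 genes. HBB2 was 117 to 184 and 84.0 to 188 times as high as BPGM in these groups, which overlapped. BPGM ranked 4 of 3812 for a steady ratio to HBB2, so this overlap is no separate result. Its FPKM was only 0.095 to 0.385 in the blank libraries.

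**Figure D5:**
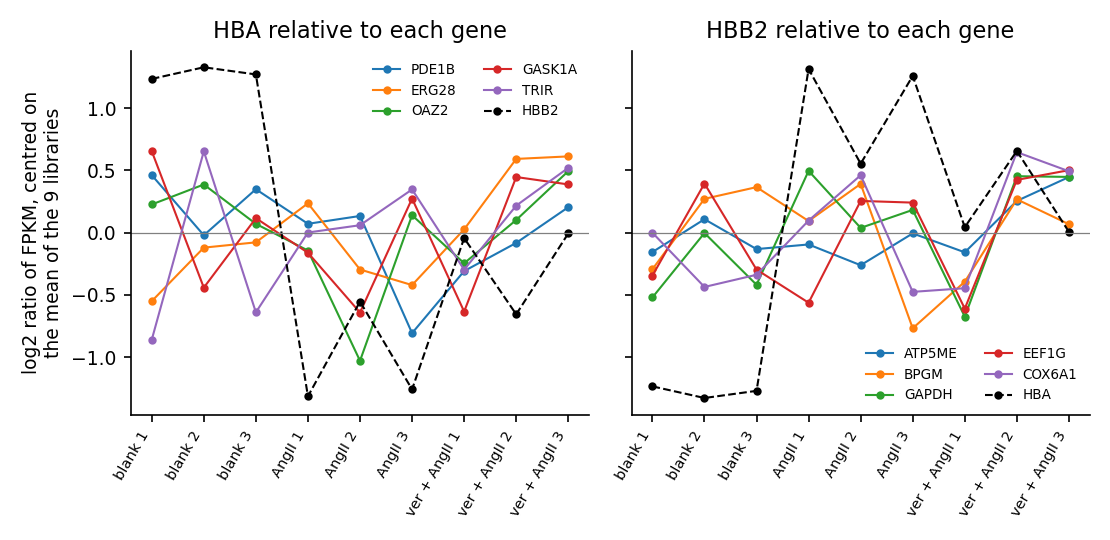
Log2 ratio of FPKM of HBA (left) and HBB2 (right) to the 5 symbol genes that followed each most closely (coloured lines) and to the other member (dashed line) in the 9 libraries, each centred on its mean. The coloured genes were picked for the smallest SD, so the dashed line, with an SD of 1.06, spreads more than they do by construction. The median SD over all 3812 genes was 1.10 for HBA and 1.12 for HBB2. ATP5ME beside HBB2 spreads least, with an SD of 0.23.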

How the data were processed

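RNA of 9 CF libraries was sequenced by the authors from TRIzol total RNA with an Illumina TruSeq kit. After quality filtering and comparison with a reference, to which newly predicted coding transcripts were added, the authors deposited the level of each gene as FPKM. The processing notes of the submitters list OryCun2.0, FastQC 0.11.9, Trimmomatic 0.39, HISAT2 2.2.1 and featureCounts 2.0.1, with no role given. Groups and replicates came from the sample titles, and every column was assigned.

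The table holds no counts. Low FPKM values, compared with the first blank library, put relative depths at 0.688 to 1.15 in the blank and AngII libraries. In the vericiguat + AngII libraries the estimate (0.363 to 0.847) rested on 23 to 33 genes at the peak, so that depth is uncertain and no counting interval is given.

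Calls came from limma 3.58.1 (R 4.3.3) on log2(FPKM + 1), with lmFit, eBayes with trend, all 9 libraries and Benjamini-Hochberg adjustment over the 10908 genes that reached an FPKM of 1 in 3 or more libraries. The pseudocount understates changes of low genes. The function was tested on simulated data. Exact permutation of 3 against 3 libraries cannot reach 0.05, and since HBA and HBB2 were chosen by these values, no p-value or call is given for them.

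HBA, HBB2, the lists and the alternatives were chosen with earlier results of these data known. The genes named are the members, all list genes with a symbol, GAPDH and ACTB, the neighbours in level, and for each member the 5 symbol genes with the steadiest ratio to it. Alternatives were other pseudocounts, filters and scalings, other sums as reference, only the compared groups, the replicate number as a block, and each library left out. No globin sequence is shown.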

Additional observations from a re-analysis of the deposited data

How the results depend on the processing

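The log2 alpha to beta ratio kept its sign and moved by less than 1 SD with a pseudocount of 1, with summed FPKM and with each library left out. After quantile normalization, added after the values were seen, it was -1.34 for AngII against blank, 3.05 for treatment against AngII and 1.70 for treatment against blank, where the sign turned. The table has no counts, so precision at low FPKM is unknown, and most list genes are not listed by symbol.

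With each library rescaled to the same total (TPM), the log2 fold changes of HBA were 6.80 for treatment against AngII and 6.20 against blank, and those of HBB2 5.99 and 7.66. With the same sum outside KEF51 they were -1.02 (AngII against blank), 2.73 and 1.71 for HBA and 1.28, 1.92 and 3.21 for HBB2. Median-ratio scaling gave -1.18, 0.41 and -0.77 for HBA and 1.14, -0.39 and 0.74 for HBB2, so HBA against blank and HBB2 against AngII turned direction. Quantile normalization gave 3.57 and 2.86 for HBA (treatment against AngII and blank) and 0.63, 0.53 and 1.16 for HBB2 in the 3 comparisons. These scalings set the shift shared by all genes to other values, with a median over genes of 2.77 and 2.83 before and 0.088 and 0.19 after median-ratio scaling.

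For the share outside KEF51, the log2 ratios of treatment to AngII and to blank were 2.74 and 1.71 for HBA and 1.93 and 3.22 for HBB2. Without the 100 highest entries they were 0.74 and -0.68 for HBA and -0.066 and 0.83 for HBB2. Against the median of genes above 0 in all libraries they were 0.40 and -0.77, and -0.40 and 0.74. Against the median of genes at FPKM of at least 1 in all libraries they were 0.91 and -0.43, and 0.10 and 1.08. With the KEF51 entries in the sum they were 6.82 and 6.21, and 6.01 and 7.72. Without ADORA1-2, an alternative chosen after seeing the data, they were 1.00 and -0.25, and 0.19 and 1.27. For AngII against blank no reference moved the share by over 1 SD.

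The number of genes called for AngII against blank was 169. It was 969 and 1190 with pseudocounts of 0.1 and 0.01, 79 with no filter, 342 with a mean FPKM of at least 5, 22 with TPM, 934 (576 higher, 358 lower) with median-ratio scaling, 1582 (931 higher, 651 lower) with quantile normalization and 0 with only the compared groups (1663 at an unadjusted p below 0.05 from limma). For treatment against AngII and blank it was 3113 and 3110 with the mean filter, which tests fewer genes, 4777 and 5061 with the same sum outside KEF51, 465 (261 higher) and 1067 (688 higher) with median-ratio scaling, and 684 (527 higher) and 2124 (1525 higher) with quantile normalization. Of the 9 list genes, 1 (CA2) was called for AngII against blank with a pseudocount of 0.01. For treatment against AngII and blank 3 and 3 were called with the mean filter, 3 and 5 with the same sum outside KEF51 (HP lower among the 5), 1 and 1 with median-ratio scaling (FTL, lower) and 0 and 2 with quantile normalization (FTL and UROS, lower). Apart from the mean filter, the cause of these differences was not tested.

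The replicate number as a block cannot change the fitted differences, since each group holds each number. They stayed at -2.32, 0.81 and -1.51 for the log2 alpha to beta ratio. The block lowered the calls for AngII against blank to 7. Deviations of same-numbered libraries from their group means correlated between -0.0616 and 0.0646, and those of differently numbered ones between -0.0611 and 0.0614. Most tested genes were below 1 FPKM in the blank and AngII libraries, so this cannot show whether the numbers pair the libraries.

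With each library left out in turn, the log2 fold changes of HBA ranged from -0.78 to -0.11 for AngII against blank, 5.53 to 6.01 for treatment against AngII and 4.99 to 5.66 against blank. Those of HBB2 ranged from 1.48 to 2.18, 4.70 to 5.29 and 6.44 to 7.14. The log2 ratios of the share ranged from -1.40 to -0.60, 2.55 to 2.97 and 1.34 to 2.13 for HBA and from 0.90 to 1.74, 1.67 to 2.26 and 2.83 to 3.67 for HBB2, and those of the alpha to beta ratio from -2.56 to -2.18, 0.67 to 1.05 and -1.63 to -1.30. Calls for AngII against blank ranged from 0 to 309. They were 0 without the third blank library (993 at an unadjusted p below 0.05 from limma), 309 without the second and 29 without the third AngII library. Without the first, the second and the third vericiguat + AngII library they were 2, 2 and 18. The cause of these differences was not tested. Calls for treatment against AngII ranged from 10852 to 10870 and against blank from 10807 to 10870. List genes called ranged from 0 to 1, 8 to 9 and 8 to 9, the additional one being HP without the second blank library.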
